A study of Mus musculus with 24 samples.

Results

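The genes described are 85 splicing factors, the RNA-binding and spliceosomal proteins that choose splice sites and carry out splicing, in MIN6 cells given the calcium channel blocker verapamil. They were chosen by symbol from a table of 12310 genes: the SR proteins (Srsf) with Tra2a and Tra2b, the heterogeneous nuclear ribonucleoproteins (Hnrnp) with Ptbp1 to Ptbp3, the Snrp proteins of the small nuclear ribonucleoproteins, the SF3a and SF3b subunits with the U2af genes, the numbered Prpf genes, and the tissue-restricted regulators of the Rbfox, Nova, Elavl and Celf families. Snrpn and 2 pseudogene symbols were left out, and 84 of the 85 are annotated as protein coding, Snrpert being a processed pseudogene. The choice rests on the symbol alone, although it was made with earlier results of these data known. All 85 passed the filter on low counts.

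MIN6 is a mouse β-cell line, labelled wild type. Verapamil-treated cells received 50 µM verapamil for 24 h and control cells were left untreated for the same time, both at 5.6 mM glucose, and RNA was sequenced from 12 libraries of each group. The libraries share 1 cell line at a low passage and a single dose and time, and no vehicle control is described. The sources differ on what a library is: the study's methods give 4 sets of independent experiments with 3 replicates of each, whereas the deposited design text counts 12 independent experiments. Libraries were put in sets 1 to 4, with 3 per group in each, by the first digit of the labels' description, a step that no source spells out. Where the methods' account holds, n = 12 counts replicates of 4 experiments, and the p-values over 24 libraries mix the spread within experiments with that between them.

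Splicing joins exons after the U1 and U2 small nuclear ribonucleoproteins mark the ends of an intron and the U4, U5 and U6 particles then build the catalytic spliceosome. SR proteins bind exonic enhancers and mostly favour inclusion of an exon, whereas many hnRNPs bind silencers and favour skipping, and the balance between them, with tissue-restricted factors of the Rbfox, Nova, Elavl and Celf families, sets the isoforms of a cell type. Pancreatic β cells share several of these regulators with neurons, and many splicing factors limit their own mRNA through poison exons that send it to decay. The values here are read counts per gene, so they give the RNA of each factor and not its protein, its isoforms or the splicing of its targets.

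Total counts were 12590476 to 44806556 per library, and values are normalised read counts in CPM after TMM scaling. Across genes, the log2 difference of a verapamil library from the mean control library was correlated with GC content at r = 0.036 to 0.65 and with transcript length at r = -0.61 to -0.036, against -0.18 to 0.16 and -0.13 to 0.13 in the control libraries, and the correlation with GC content was strongest in experiment sets 2 and 3. The verapamil library V11, of set 4, had the strongest correlation with length (r = -0.61), and the control library C9 had the fewest counts. Of the β-cell markers 8 of 10 were measured, at a summed 2565 to 3406 CPM in verapamil and 2865 to 3903 CPM in control libraries, with Iapp low, at 1.21 ± 0.302 CPM in verapamil and 2.19 ± 0.595 CPM in control cells. Of the other lists, 1 of 8 other endocrine markers (Gcg), 1 of 8 acinar and ductal markers (Sox9, under 5 CPM), 1 of 8 fibroblast and endothelial markers (Pdgfra, under 2 CPM), 0 of 6 leukocyte markers and 7 of 9 neuronal markers were in the table.

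In the test of all 24 libraries without covariates, verapamil-treated cells held less RNA of most SR proteins and hnRNPs. The Snrp proteins and the SF3 and U2AF subunits were called in both directions, mostly by smaller amounts apart from Sf3b1. Of the 85 genes, 46 were lower (54.1%) and 12 were higher (14.1%) at an adjusted p under 0.05 (edgeR quasi-likelihood test with Benjamini-Hochberg adjustment), against 31.6% of the 12306 genes tested being lower and 31.2% higher, and 27 did not pass. The median log2 fold change over the 85 was -0.19, against -0.0033 over all genes tested. In 15 of the 85 (17.6%) every one of the 12 treated libraries fell under the lowest control, against 5.18% of the genes tested, and in 0 of the 85 they all lay above, against 4.95%. Together the 85 genes held 28020.3 ± 2462 CPM in verapamil and 33563 ± 895 CPM in control cells (SD, n = 12 each). In these bulk cultures, fewer cells of a kind and less RNA per cell cannot be told apart.

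Both counts depended on how the libraries were used. With the counts summed per experiment set and group, 4 sums against 4, 26 genes were lower (17.3% of genes tested) and 6 higher (24.4%), all of them among the 46 and the 12. On these sums 8 of 12 SR genes and 10 of 23 hnRNP and Ptbp genes were lower. With the GC and length slopes of each library as covariates, 26 were lower (14.3%) and 1 was higher (21.3%). In that fit 5 of 12 SR genes and 11 of 23 hnRNP and Ptbp genes were lower. Without sets 2 and 3, 26 were lower (12.0%) and 1 higher (13.4%). Without set 2 alone 40 were lower and 4 higher, against 2518 and 2852 of all genes. Upper-quartile factors in place of TMM gave 43 and 19, against 3489 and 4396 of all genes. With those factors the median log2 fold change over all genes was 0.058. DESeq2 on the same libraries gave 47 decreases, against 32.3% of genes, and 12 increases, against 31.8%.

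**Figure D1:**
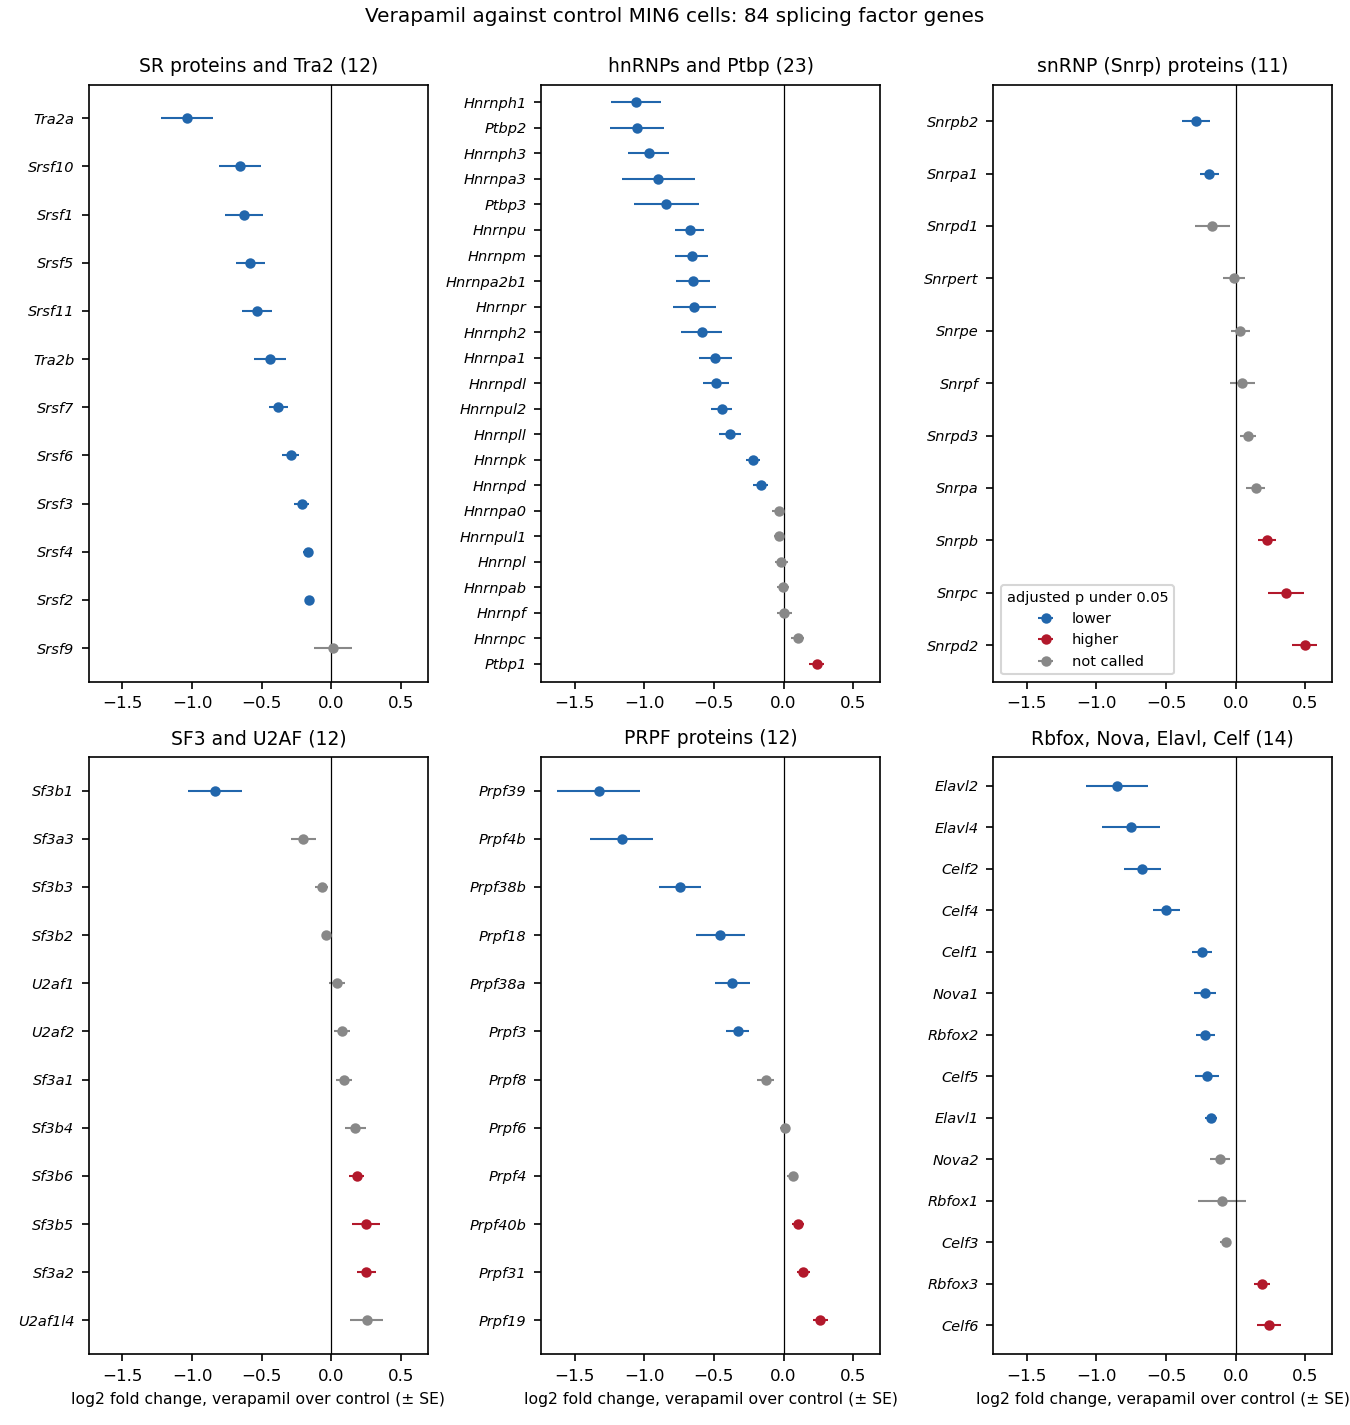
Log2 fold change of 84 of the 85 splicing factor genes, verapamil over control, with its standard error (horizontal bars), in 6 panels by family; colour gives the call at an adjusted p under 0.05. In the SR panel 11 of 12 genes are called lower, whereas the SF3 and U2AF panel holds 1 gene called lower and 3 called higher.

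Promoter sequence is shown for 5 genes: Prpf39, Hnrnph1, Tra2a and Hnrnpa3, which were lower, and Prpf19, which was higher by a smaller amount (log2 fold change 0.26). Each run is the 150 bases before the RefSeq start on GRCm38.p6, written 5′ to 3′ on the strand of the gene; only starts within 25 bases of the GENCODE start, with at most 25 annotated exonic bases in the run, were taken. Capitals mark matches, on either strand, to 6 motifs: the GC box GGGCGG, the cyclic AMP response element TGACGTCA, the ETS motif CCGGAAG, the NRF1 motif GCATGCGC, the CCAAT box and the YY1 motif AAGATGG. Hnrnph1 holds none of them in this run.
Prpf39, chr12:65036184-65036333 (+): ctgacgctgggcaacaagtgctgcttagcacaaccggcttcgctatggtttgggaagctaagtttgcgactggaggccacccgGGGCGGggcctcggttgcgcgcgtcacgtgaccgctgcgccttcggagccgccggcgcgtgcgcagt
Hnrnph1, chr11:50376840-50376989 (+): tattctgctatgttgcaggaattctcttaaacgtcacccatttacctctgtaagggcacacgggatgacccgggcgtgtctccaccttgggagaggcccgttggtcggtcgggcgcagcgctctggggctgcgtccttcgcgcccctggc
Tra2a, chr6:49264053-49264202 (-): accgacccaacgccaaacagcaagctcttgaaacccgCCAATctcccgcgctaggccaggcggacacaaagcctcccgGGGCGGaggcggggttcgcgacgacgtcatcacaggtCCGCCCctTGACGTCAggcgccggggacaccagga
Hnrnpa3, chr2:75659109-75659258 (+): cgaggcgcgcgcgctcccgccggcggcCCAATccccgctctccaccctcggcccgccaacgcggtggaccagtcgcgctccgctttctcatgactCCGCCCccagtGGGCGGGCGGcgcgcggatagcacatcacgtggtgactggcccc
Prpf19, chr19:10895081-10895230 (+): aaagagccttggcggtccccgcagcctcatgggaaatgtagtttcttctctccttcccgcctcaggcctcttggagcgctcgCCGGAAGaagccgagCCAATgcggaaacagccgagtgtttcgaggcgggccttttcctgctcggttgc

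Over the 250 bases before the start, 72 of the 85 genes had a RefSeq promoter. The GC box was found in 62.5% of the members' promoters and in 63.7% of 8249 promoters. By call it was found in 29 of 39 promoters of genes that were lower, 5 of 10 of genes that were higher and 11 of 23 of the rest, a split that was not tested. The ETS motif was found in 22.2% of the members' promoters and 14.5% of all, the CCAAT box in 43.1% and 36.2%, the YY1 motif in 5.56% and 4.17%, the NRF1 motif in 2.78% and 4.91%, and the cyclic AMP response element, carried by Tra2a, Snrpa and Celf6, in 4.17% and 2.84%. A match is a description of the letters and not a bound site.

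Among the SR proteins and Tra2, 11 of 12 genes were lower (31.6% of genes tested) and none was higher (31.2%), with a median log2 fold change of -0.41. Of the 12 genes, 11 had a log2 fold change under 0 in each of the 4 experiment sets, against 30.7% of genes. The sets hold the same libraries as the call, so these signs do not add to it. The summed level of the family was 2899 ± 526 CPM in verapamil and 3874 ± 176 CPM in control cells (SD, n = 12 each). The largest decrease was in Tra2a, an SR-like activator that binds GA-rich exonic enhancers, at 9.81, 19.1 and 38.4 CPM in the verapamil libraries, against 35.5, 44.4 and 50.8 CPM in the control libraries (lowest, median and highest of 12). Only the highest verapamil library reached into the range of the controls, and the log2 fold change was -1.04 ± 0.19, adjusted p = 5.33e-05.

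Srsf1, the prototype SR protein, had 309.6, 689.9 and 923 CPM in the verapamil libraries, against 973, 1017 and 1089 CPM in the control libraries. The groups did not overlap (-0.63 ± 0.14, adjusted p = 0.000489). Srsf10, an SR protein that turns into a general repressor when it is dephosphorylated, had 41.8, 101 and 156 CPM in the verapamil libraries, against 148, 155 and 169.5 CPM in the control libraries, and 11 of the 12 verapamil libraries lay below every control (-0.65 ± 0.15, adjusted p = 0.000826). Srsf5 had 122, 181 and 265 CPM in the verapamil libraries, against 239.7, 290.1 and 329 CPM in the control libraries, with 9 libraries below every control (-0.58 ± 0.10, adjusted p = 4.60e-05). Reads of Srsf5 and Srsf10 can be shared with near-identical copies in the genome, and exons of Srsf1 overlap an opposite-strand transcript, so these counts are uncertain to that extent.

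The other SR genes that were lower spanned a wide range of size. Srsf11 changed by -0.53 ± 0.11 and Tra2b, the paralog of Tra2a, by -0.44 ± 0.11, followed by Srsf7 at -0.38, Srsf6 at -0.29 and Srsf3, the smallest SR protein, at -0.21. Tra2b and Srsf3 have 4 near-identical copies each. The smallest decreases were in Srsf4 (-0.17 ± 0.033) and in Srsf2, which marks nuclear speckles (-0.16 ± 0.033). Even so, both lay below every control in 10 of 12 verapamil libraries. Srsf9 was not called, at 8.36 ± 2.24 CPM in verapamil and 8.30 ± 1.67 CPM in control cells (0.011 ± 0.14, adjusted p = 0.949).

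Of the 23 hnRNP and Ptbp genes, 16 were lower (31.6% of genes tested), 1 was higher (31.2%) and 6 were not called. The median log2 fold change was -0.48. This family held 9 of the 15 genes whose groups did not overlap. Its summed level was 13665 ± 2021 CPM in verapamil and 17781 ± 494 CPM in control cells (SD, n = 12 each). Hnrnph1, which binds runs of G near splice sites, had 208, 486 and 848 CPM in the verapamil libraries, against 969, 1068 and 1186 CPM in the control libraries. The groups did not overlap and the log2 fold change was -1.06 ± 0.18, adjusted p = 3.08e-05. Its close relative Hnrnph3 had 29.3, 63.3 and 96.6 CPM in the verapamil libraries, against 109, 124 and 142 CPM in the control libraries, again with no overlap (-0.97 ± 0.14, adjusted p = 5.16e-06), although its exons overlap Rufy2 on the opposite strand.

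The 3 polypyrimidine tract-binding proteins moved in different directions. Ptbp2, the neuronal paralog whose mRNA is held down by Ptbp1 through exon skipping and decay, had 27.3, 71.8 and 119.7 CPM in the verapamil libraries, against 136, 149.8 and 169.6 CPM in the control libraries, with no overlap (-1.05 ± 0.20, adjusted p = 8.11e-05). Ptbp3 was lower by a similar size (-0.84 ± 0.23, adjusted p = 0.00328). Ptbp1, the broadly expressed repressor, had 474, 570.2 and 666 CPM in the verapamil libraries, against 427, 472 and 497 CPM in the control libraries, with 8 verapamil libraries above every control (0.24 ± 0.053, adjusted p = 0.000513). Exons of Ptbp1 overlap Plppr3 and other transcripts on the opposite strand, and it has 1 near-identical copy.

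**Figure D2:**
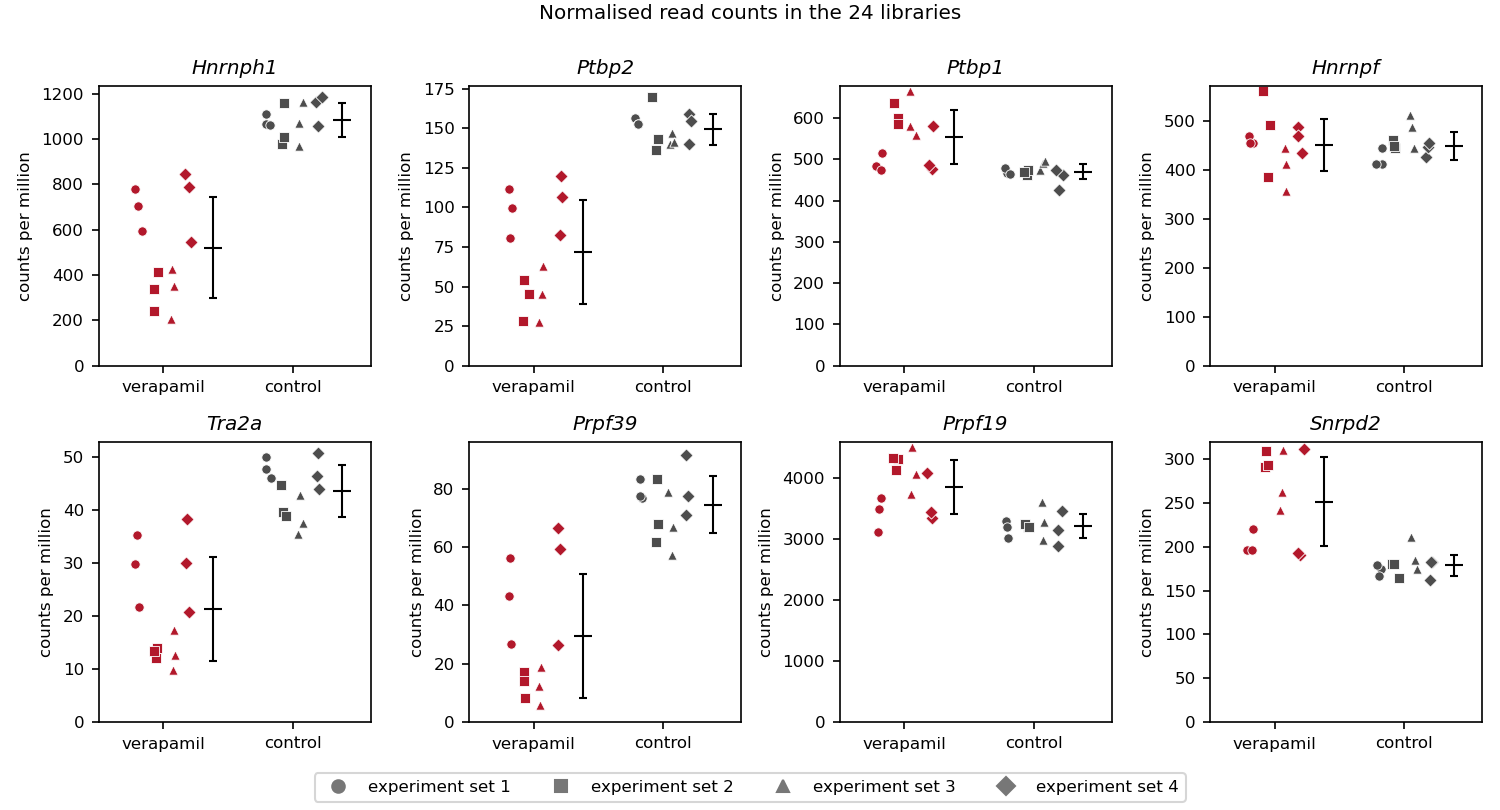
Normalised read counts (CPM) of 8 genes in each of the 24 libraries, verapamil (red, left) and control (grey, right); marker shape gives the experiment set, and the black bar is the mean ± SD of 12 libraries. Hnrnph1 and Ptbp2 do not overlap between groups and are lowest in sets 2 and 3, whereas Hnrnpf overlaps fully.

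Another 6 hnRNPs were lower without overlap. Hnrnpa2b1, a partner of Hnrnpa1 in the core hnRNP particle, had the highest level per length of the 85 genes, 1054 CPM per kb of transcript in verapamil and 1652 in control cells. It had 984, 1805 and 2492 CPM in the verapamil libraries, against 2669.9, 2824 and 3112 CPM in the control libraries (-0.65 ± 0.12, adjusted p = 0.000105). Hnrnpu, which ties nuclear RNA to chromatin, changed by -0.67 ± 0.10 and Hnrnpm by -0.66 ± 0.12. Hnrnpul2 (-0.44), Hnrnpll (-0.38) and Hnrnpk, a poly(C)-binding protein (-0.22), completed the 9. Hnrnpk has 2 near-identical copies. Hnrnpa3 had 2.49, 7.83 and 17.3 CPM in the verapamil libraries, against 14.3, 16.3 and 18.7 CPM in the control libraries (-0.90 ± 0.26, adjusted p = 0.00528), but 27 near-identical copies can take its reads, and it was not called without set 2 (adjusted p = 0.0547 by the same edgeR test) or without set 3 (adjusted p = 0.0613).

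The remaining genes that were lower were Hnrnpr (-0.64), Hnrnph2 (-0.59), Hnrnpa1 (-0.49), Hnrnpdl (-0.48) and Hnrnpd, also known as AUF1 (-0.16), whose call was lost without set 2 or set 3. Reads of Hnrnpa1 can be shared with 9 near-identical copies, and those of Hnrnpr and Hnrnph2 with 1 each. The 6 that did not pass stayed within -0.035 and 0.10: Hnrnpa0, Hnrnpul1, Hnrnpl, Hnrnpab, Hnrnpf and Hnrnpc. Hnrnpf, which recognises the same G runs as Hnrnph1, had 357, 455 and 562 CPM in the verapamil libraries, against 413, 447 and 514 CPM in the control libraries (0.0065 ± 0.056, adjusted p = 0.926). Hnrnpl had 757, 903 and 1034 CPM in the verapamil libraries, against 846, 908 and 929 CPM in the control libraries (-0.015 ± 0.047, adjusted p = 0.788). Hnrnpc passed as higher without control library C9 (adjusted p = 0.0273 by the same edgeR test).

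Among the related genes, 2 pairs, picked after their values were seen, are given as a description without a test. The log2 ratio of Ptbp1 to Ptbp2 CPM was 2.00, 2.98 and 4.61 in verapamil libraries, against 1.44, 1.67 and 1.81 in control libraries (lowest, median and highest). The log2 ratio of Hnrnpf to Hnrnph1 was -0.80, -0.13 and 0.78 in verapamil libraries, against -1.45, -1.29 and -0.91 in control libraries. Neither ratio overlapped between groups. Reads of Hnrnpf can be shared with 8 near-identical copies, and its exons overlap transcripts on the opposite strand. The members of each pair also differ in GC content, at 53.7% in Ptbp1 and 43.1% in Ptbp2 and 49.0% in Hnrnpf and 45.4% in Hnrnph1, and the part of this in the ratios was not tested.

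Of the 13 Prpf genes, 7 were lower (31.6% of genes tested), 3 were higher (31.2%) and 3 were not called. Their proteins act from U1 recognition to the second step of splicing, and their median log2 fold change was -0.33. Their summed level, most of it Prpf19, was 5989.9 ± 359.6 CPM in verapamil and 5816 ± 233 CPM in control cells (SD, n = 12 each). They include the 2 largest decreases of the 85 genes. Prpf39, a U1-associated factor, had 5.89, 22.6 and 66.6 CPM in the verapamil libraries, against 57.4, 77.0 and 91.7 CPM in the control libraries. All but 2 of the verapamil libraries lay below every control (-1.33 ± 0.30, adjusted p = 0.000609), and its exons overlap Fkbp3 on the opposite strand. Prpf4b, a kinase that phosphorylates tri-snRNP proteins, had 35.8, 79.7 and 202 CPM in the verapamil libraries, against 187, 238 and 255 CPM in the control libraries (-1.16 ± 0.23, adjusted p = 0.000143).

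Prpf38b, of the precatalytic spliceosome, had 36.7, 71.8 and 119.6 CPM in the verapamil libraries, against 119.7, 129 and 139 CPM in the control libraries, with no overlap (-0.75 ± 0.15, adjusted p = 0.000194). Prpf40b had 101, 112 and 129 CPM in the verapamil libraries, against 97.2, 105 and 113 CPM in the control libraries (0.10 ± 0.041, adjusted p = 0.0305), an increase that was lost without verapamil library V11 (adjusted p = 0.0502 by the same edgeR test), without control library C9 (adjusted p = 0.0505) or with any of sets 2, 3 and 4 left out.

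Further decreases were in Prpf18, a second-step factor at under 4 CPM (-0.45), Prpf38a (-0.37) and Prpf3, of the U4/U6 particle (-0.33), of which Prpf18 and Prpf38a were not called without set 2 or set 3. Prpf19, a ubiquitin ligase that joins the spliceosome on activation, had 3108, 3892 and 4497 CPM in the verapamil libraries, against 2880.0, 3191 and 3603 CPM in the control libraries, with 8 verapamil libraries above every control (0.26 ± 0.056, adjusted p = 0.000308). Prpf31, of the U4/U6 particle, had 58.4, 62.8 and 76.3 CPM in the verapamil libraries, against 54.3, 59.4 and 63.1 CPM in the control libraries (0.14 ± 0.048, adjusted p = 0.0131), and exons of it overlap an opposite-strand transcript; its call was lost without set 2 (adjusted p = 0.191). Prpf8, the scaffold of the catalytic core, Prpf6, which joins the tri-snRNP, and Prpf4 were not called, at -0.13 ± 0.062, 0.011 ± 0.034 and 0.066 ± 0.041. Prpf8 passed as lower without verapamil library V11 (adjusted p = 0.0177 by the same edgeR test).

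Of the 12 SF3 and U2AF genes, 1 was lower (31.6% of genes tested), 3 were higher (31.2%) and 8 were not called. Their proteins recognise the branch point and the 3′ splice site, and their median log2 fold change was 0.084. Their summed level was 2656 ± 139 CPM in verapamil and 3050.4 ± 60.9 CPM in control cells (SD, n = 12 each). The decrease was in Sf3b1, the large SF3b subunit that clamps the branch helix, which had 206, 445 and 926 CPM in the verapamil libraries, against 834, 966 and 1098 CPM in the control libraries. The highest 2 verapamil libraries lay within the control range (-0.83 ± 0.19, adjusted p = 0.000681). No other subunit moved by as much: the remaining 11 lay between -0.20 (Sf3a3) and 0.25 (U2af1l4).

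Sf3a2 had 56.2, 71.5 and 89.3 CPM in the verapamil libraries, against 51.5, 59.5 and 64.1 CPM in the control libraries (0.25 ± 0.067, adjusted p = 0.00252). Sf3b5 had 7.09, 10.2 and 15.6 CPM in the verapamil libraries, against 7.66, 9.13 and 9.85 CPM in the control libraries (0.25 ± 0.10, adjusted p = 0.0350), and Sf3b6, the subunit at the branch adenosine, had 149, 172 and 219 CPM in the verapamil libraries, against 142, 152 and 173 CPM in the control libraries (0.18 ± 0.055, adjusted p = 0.00663). These increases overlapped with the controls and none of the 3 passed without set 2; Sf3b5 also lost its call without verapamil library V11 (adjusted p = 0.0837 by the same edgeR test), and exons of Sf3a2 overlap Plekhj1 on the opposite strand. U2af2, which binds the polypyrimidine tract, and U2af1, which reads the AG at the 3′ splice site, changed by 0.076 ± 0.056 and 0.040 ± 0.058 and were not called. Neither were Sf3a1 (0.091 ± 0.059), Sf3a3 (-0.20 ± 0.089), Sf3b2 (-0.036 ± 0.035), Sf3b3 (-0.068 ± 0.046), Sf3b4 (0.17 ± 0.078) and U2af1l4 (0.25 ± 0.12). Sf3a3 passed as lower without V11 (adjusted p = 0.0144).

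Among the 11 Snrp genes, 3 were higher (31.2% of genes tested), 2 were lower (31.6%) and 6 were not called. Neither count lay above its share over all genes, and the median log2 fold change was 0.048. The summed level was 1007 ± 122 CPM in verapamil and 901 ± 41.9 CPM in control cells (SD, n = 12 each). Snrpd2, a subunit of the Sm ring that binds the small nuclear RNAs, showed the largest increase of the 85 genes, with 191, 252 and 312 CPM in the verapamil libraries, against 163, 180.0 and 211 CPM in the control libraries. In 8 verapamil libraries it lay above every control (0.49 ± 0.087, adjusted p = 4.06e-05). Snrpb, another ring subunit, had 241, 298 and 367 CPM in the verapamil libraries, against 231, 256 and 293 CPM in the control libraries (0.22 ± 0.068, adjusted p = 0.00603), and Snrpc, a U1 protein, had 37.7, 58.2 and 75.8 CPM in the verapamil libraries, against 25.8, 46.6 and 68.6 CPM in the control libraries (0.36 ± 0.13, adjusted p = 0.0166). The call for Snrpb was lost without set 2, and that for Snrpc without set 1 or set 3. Snrpd2 and Snrpc have near-identical copies.

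The 2 U2-specific proteins were lower. Snrpb2 had 33.2, 64.1 and 74.97 CPM in the verapamil libraries, against 65.3, 72.4 and 86.6 CPM in the control libraries (-0.28 ± 0.10, adjusted p = 0.0182), and Snrpa1 had 20.7, 24.0 and 31.4 CPM in the verapamil libraries, against 23.3, 27.0 and 33.9 CPM in the control libraries (-0.19 ± 0.067, adjusted p = 0.0164). The groups overlapped in both, and neither call held without set 2 or without set 3. The ring subunits Snrpd1, Snrpd3, Snrpe and Snrpf, the U1 protein Snrpa and the pseudogene Snrpert were not called, at -0.17, 0.087, 0.032, 0.048, 0.14 and -0.010. Without verapamil library V11, Snrpd1 passed as lower (log2 fold change -0.26, adjusted p = 0.0412 by the same edgeR test).

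Of the 14 tissue-restricted regulators and their relatives, 9 were lower (31.6% of genes tested), 2 were higher (31.2%) and 3 were not called. Their median log2 fold change was -0.21. Their summed level was 1804 ± 189 CPM in verapamil and 2141 ± 46.4 CPM in control cells (SD, n = 12 each). The Elavl proteins bind AU- and U-rich sequence and stabilise mRNA as well as regulate splicing. Elavl2 had 4.81, 14.4 and 30.1 CPM in the verapamil libraries, against 26.3, 30.7 and 32.2 CPM in the control libraries (-0.85 ± 0.22, adjusted p = 0.00206), and Elavl4 had 29.7, 82.7 and 162 CPM in the verapamil libraries, against 139.6, 161 and 175 CPM in the control libraries (-0.75 ± 0.21, adjusted p = 0.00309). All but 2 verapamil libraries for Elavl2, and all but 3 for Elavl4, lay below every control. Elavl1, the ubiquitous member known as HuR, changed less (-0.18 ± 0.041), and Elavl3 was not among the genes analysed.

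Celf proteins bind GU-rich elements. Celf2 had 22.5, 40.2 and 58.7 CPM in the verapamil libraries, against 60.0, 63.0 and 68.5 CPM in the control libraries, with no overlap (-0.67 ± 0.13, adjusted p = 0.000142), and Celf4 had 61.6, 96.0 and 122 CPM in the verapamil libraries, against 125, 136 and 152 CPM in the control libraries, also with no overlap (-0.50 ± 0.097, adjusted p = 0.000135). Celf1 (-0.24) and Celf5 (-0.21) were lower by smaller amounts, Celf3 was not called (-0.070 ± 0.040), and Celf6 was higher, with 7.01, 8.54 and 10.6 CPM in the verapamil libraries, against 6.10, 7.23 and 8.92 CPM in the control libraries (0.24 ± 0.084, adjusted p = 0.0170). The call for Celf6 was lost without set 2 or set 3, and that for Celf5 with any of sets 1, 3 and 4 left out. Celf1 was not called without set 3. It was lowest in V11, at 322 CPM, with 446 to 619 CPM in the other verapamil libraries.

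Among the regulators best known from neurons, Nova1, which binds YCAY clusters, changed by -0.22 ± 0.080 and was called lower, though not without set 2 (adjusted p = 0.133 by the same edgeR test) or set 3 (adjusted p = 0.152), whereas Nova2 was not called (-0.11 ± 0.070). Rbfox2, a reader of UGCAUG, had 153, 278 and 299 CPM in the verapamil libraries, against 303, 309 and 321 CPM in the control libraries, with no overlap (-0.22 ± 0.069, adjusted p = 0.00844). The lowest Rbfox2 value was that of V11, and the other verapamil libraries held 246 to 299 CPM. Rbfox1 was not called (-0.098 ± 0.17), and Rbfox3, known in neurons as NeuN, was higher, with 19.0, 21.5 and 26.4 CPM in the verapamil libraries, against 16.4, 19.2 and 22.2 CPM in the control libraries (0.19 ± 0.059, adjusted p = 0.00750). The call for Rbfox3 was lost without set 2 (adjusted p = 0.0930). The summed level of 7 neuronal markers was 275 to 349 CPM in verapamil and 300.3 to 335 CPM in control libraries, and its part in these values was not tested.

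The size of the changes differed between experiment sets. Of the 85 genes, 45 (52.9%) had a log2 fold change under 0 in all 4 sets, against 30.7% of genes, and 11 (12.9%) were above 0 in all 4, against 29.8%. The median over the 85 was -0.12, -0.26, -0.35 and -0.12 in sets 1, 2, 3 and 4. Tested within sets of 3 against 3 libraries, 33 genes were lower in set 1 (14.0% of genes tested), 45 in set 2 (30.9%) and 42 in set 3 (23.4%). Increases numbered 1 (13.7%), 11 (26.3%) and 4 (19.9%). In set 4, 0 of the 85 passed the edgeR test in either direction (0.0894% of genes tested were lower and 0.317% higher). No other tool was run within sets.

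**Figure D3:**
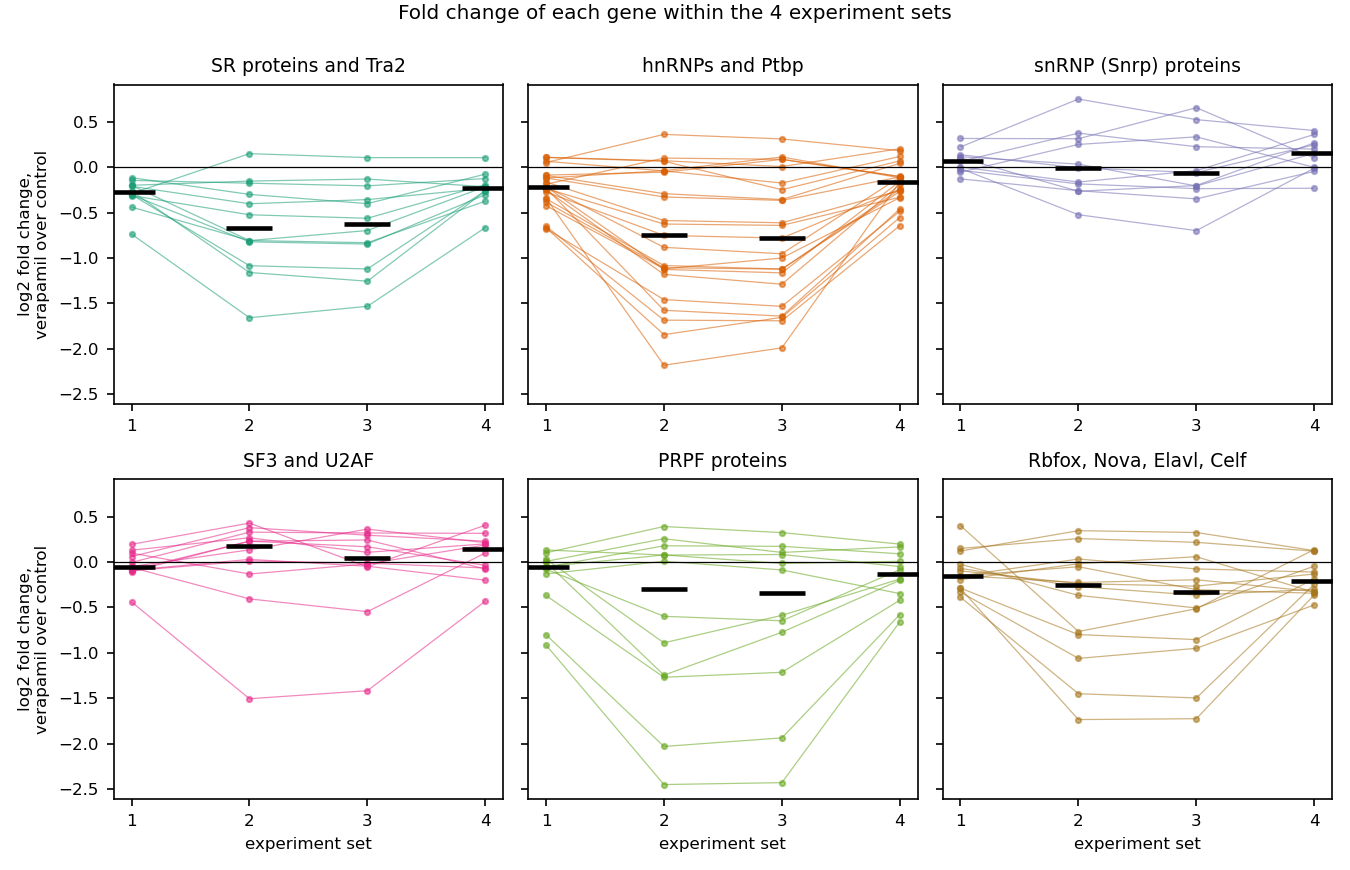
Log2 fold change of 84 of the 85 genes within experiment sets 1 to 4 (3 verapamil against 3 control libraries per set), in 6 panels by family; thin lines join the values of a gene and black bars are the medians. In the hnRNP panel the median is -0.75 and -0.78 in sets 2 and 3 and -0.21 and -0.16 in sets 1 and 4.

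A test of the interaction between experiment set and treatment passed for 24 of the 85 genes (28.2%), against 9.72% of the genes tested. Hnrnph1 changed by -0.65, -1.69, -1.69 and -0.64 in sets 1 to 4 (interaction adjusted p = 0.0197 by the edgeR quasi-likelihood test). Sf3b1 changed by -0.44, -1.51, -1.42 and -0.43. In contrast, Srsf2 changed by -0.14, -0.18, -0.21 and -0.12, and its interaction did not pass (adjusted p = 0.829). On the sums per set and group described above, the calls of the increases in Prpf40b, Prpf31, Sf3b5, Snrpc, Rbfox3 and Celf6 were lost, and among the decreases lost were Prpf18, Prpf38a, Prpf3, Srsf10, Tra2b, Srsf3, Snrpb2, Snrpa1, Hnrnpa3, Ptbp3, Hnrnpr, Hnrnph2, Hnrnpa1, Hnrnpd, Elavl2, Elavl4, Nova1, Celf5 and Elavl1. Their adjusted p-values there lay between 0.0502 and 0.173 (the same edgeR test), and their log2 fold changes kept their sign. Among genes not called with all 24 libraries, Snrpa and Sf3b4 passed as higher without set 1, Prpf8 as lower without set 2, and Snrpa and Sf3a1 as higher and Sf3a3 as lower without set 4.

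The trend with GC content and length described above also ran through these genes. Across the 85, the log2 fold change was correlated with GC content at r = 0.65 (rho = 0.66) and with log2 transcript length at r = -0.38, against r = 0.50 and -0.39 over 12304 genes. These are descriptions across genes that share the same libraries. Median GC content was 43.5% in the 46 genes that were lower, 53.0% in the 12 that were higher and 51.5% in the 27 that were not called, and 50.2% over all genes tested. By family it was 43.5% in SR genes (median log2 fold change -0.41), 45.2% in hnRNPs (-0.48), 47.1% in Prpf genes (-0.33), 47.7% in Snrp genes (0.048), 47.9% in the tissue-restricted regulators (-0.21) and 52.0% in SF3 and U2AF genes (0.084). The order by fold change was the order by GC content except that hnRNPs lay below SR genes and tissue-restricted regulators below Snrp genes. The part of GC content in the family medians was not tested.

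**Figure D4:**
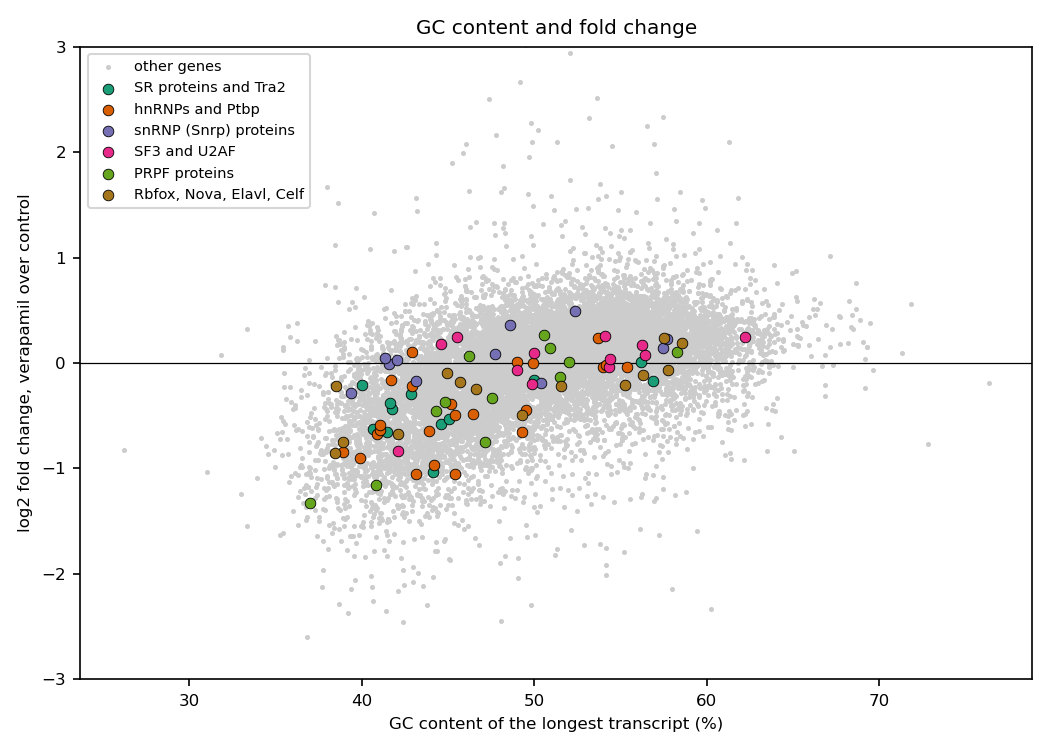
GC content of the longest transcript (%) against log2 fold change, verapamil over control, for 84 of the 85 genes (coloured by family) and the other genes (grey); 6 other genes lie beyond the axis of 3. The genes lower in verapamil lie mainly toward low GC content, and the grey points slope the same way (r = 0.50).

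Because this trend moved with the treatment, the test was repeated in 2 ways that take it into account. With the GC and length slopes of each library as covariates, 26 of the 85 genes were lower (14.3% of genes tested) and 1 was higher (21.3%), with a median of -0.072. Of the 46 decreases, 18 kept their call, and none of the 12 increases did. Among those 18 were Tra2a, Srsf2, Srsf4, Srsf5 and Srsf7; Hnrnph1, Hnrnph3, Ptbp2, Hnrnpu, Hnrnpm, Hnrnpa2b1, Hnrnpul2 and Hnrnpdl; Prpf39, Prpf4b and Prpf38b; and Celf4. Their changes were smaller than without the covariates, for example -0.45 for Hnrnph3 (adjusted p = 3.16e-07 by the edgeR quasi-likelihood test), -0.37 for Hnrnph1 and -0.37 for Tra2a. Sf3b1 (-0.077), Srsf1 (-0.11), Elavl4 (0.012) and Ptbp3 (0.11) no longer passed, and Ptbp1 stood at 0.0044 and Snrpd2 at 0.086.

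The gene called higher with the covariates was Rbfox1 (0.53), which was not called without them, and Sf3b5 turned from higher to lower (-0.19). Another 7 genes that had not been called passed as lower, among them Hnrnpl (-0.21), Hnrnpa0 (-0.18) and U2af2 (-0.16).

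With the trend removed as an offset in place of covariates, 34 genes were lower (24.0% of genes tested) and 21 higher (32.7%). Of 12 SR genes 6 were then lower and 2 higher, and of 23 hnRNP and Ptbp genes 11 were lower and 5 higher. Of the 46 decreases 23 kept their call and 9 were called in the opposite direction, namely Celf1, Elavl1, Hnrnpd, Hnrnpk, Hnrnpr, Nova1, Snrpb2, Srsf3 and Srsf6; of the 12 increases 5 kept their call and Snrpb was called lower. The treatment and the trend overlap, with a variance inflation of 1.98 for the treatment when the slopes are in the model, so their parts in these values cannot be told apart fully.

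**Figure D5:**
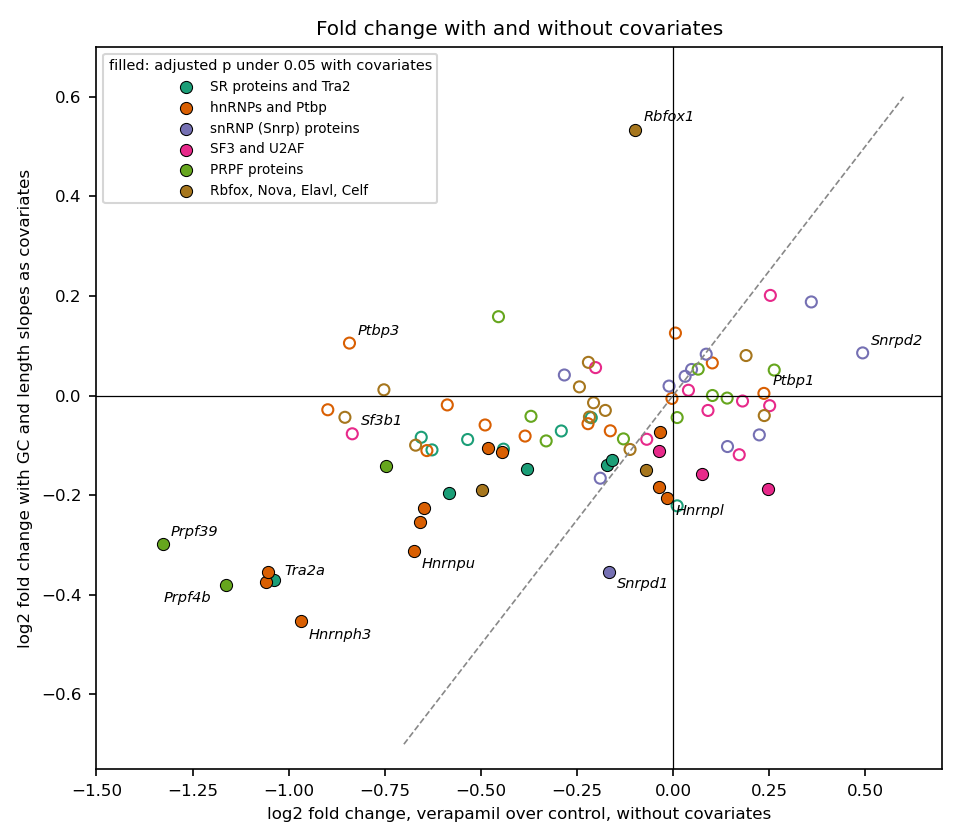
Log2 fold change of 84 of the 85 genes without covariates (x axis) against that with the GC and length slopes of each library as covariates (y axis), coloured by family; filled points have an adjusted p under 0.05 with the covariates and the dashed line marks equal values. Hnrnph3 (-0.45) and Prpf4b (-0.38) stay well below 0 on the y axis, while Sf3b1 (-0.077) is close to it.

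Other genes of the splicing machinery, from lists drawn up by role, were counted in the same test. Of 53 other spliceosomal genes measured, 19 were lower and 15 higher, with a median log2 fold change of 0.012, whereas of 24 SR kinases and SR-related genes 18 were lower and 1 higher, with a median of -0.33. Of 44 other RNA-binding regulators 28 were lower and 7 higher (-0.30), and of 23 exon junction, export and decay genes 9 were lower and 7 higher (-0.045). All 144 together gave 74 decreases and 30 increases, against the same 31.6% and 31.2% of all genes.

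In the spliceosome list, the U1-associated Luc7l3 stood at 180.0 ± 115 CPM in verapamil and 425 ± 54.4 CPM in control cells (SD, n = 12 each; -1.24 ± 0.27, adjusted p = 0.000377) and the U2-associated U2surp at 148 ± 65.1 CPM in verapamil and 285 ± 17.1 CPM in control cells (-0.94 ± 0.17, adjusted p = 7.41e-05), and Cwc22 (-1.04) was also lower. Clk1, a kinase that phosphorylates SR proteins, stood at 21.8 ± 12.7 CPM in verapamil and 45.3 ± 5.67 CPM in control cells (-1.05 ± 0.26, adjusted p = 0.00113), and the SR-related genes Pnisr (-1.46), Srek1 (-1.30) and Pnn (-1.04) were also lower. Among the RNA-binding regulators, Matr3, a nuclear matrix protein, stood at 269 ± 166 CPM in verapamil and 595 ± 34.5 CPM in control cells (-1.15 ± 0.26, adjusted p = 0.000655), next to Fmr1 (-1.09), Rbm39 (-1.09) and Rbm25 (-0.97). In the last list, Thoc2, of the THO export complex, changed by -1.46 ± 0.33, adjusted p = 0.000589, Upf2 and Upf3b, of nonsense-mediated decay, by -0.97 and -0.88, and Thoc1 by -0.76. With the GC and length covariates the 4 lists gave 11, 10, 20 and 7 decreases and 3, 1, 4 and 3 increases. In that test 14.3% of all genes were lower and 21.3% higher, and the list medians were -0.030, -0.089, -0.096 and -0.013. Of the genes named here, Cwc22 (-0.25, adjusted p = 0.137), Upf2 (-0.013, adjusted p = 0.935), Upf3b (-0.073, adjusted p = 0.610) and Thoc1 (0.0053, adjusted p = 0.962) lost their call there, by the same edgeR test. The others passed, with log2 fold changes of -0.51 (Pnisr) to -0.20 (Fmr1).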

How the data were processed

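The authors deposited 1 table of raw counts, reads per gene for 24 libraries, with GRCm38 (mm10) as the build. The submitters' processing notes name HTSeq 0.9.1 for counting, HISAT2 2.1.0 for alignment, Trimmomatic 0.39 for trimming and bcl2fastq 2.20. The library kit is named differently in the labels and in the study's methods, and neither the strand option nor the gene models of the counting step were found in them, so genes that overlap another gene on the opposite strand (29 of the 85) or have near-identical copies (19 of the 85, at least 95% identity over 300 bases) are uncertain. This holds also for genes at which it is not repeated. The table also holds the authors' own comparison, deposited as log2 CPM, the fold (a ratio), its log2, the p-value before and after adjustment and a log10 of a p-value. None of these columns was used.

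The counts, filtered by filterByExpr (at least 10 reads, total at least 15) and scaled by TMM factors, were tested in edgeR 4.0.16 (R 4.3.3) with the quasi-likelihood test of verapamil against control on all 24 libraries without covariates, adjusted by Benjamini-Hochberg over 12306 genes at 0.05. The SE of a log2 fold change was taken as its absolute value over the square root of F. Group and replicate were taken from the labels. The names of 4 columns fit more than 1 sample, so these entered as libraries of their group without a number, and their experiment set was taken by elimination. No 2 libraries agreed within sampling noise. The study's methods give 4 independent experiments of 3 replicates and the deposited design text 12 independent experiments, so p-values measure the spread between libraries, which may be partly that of replicates within an experiment. Alternatives were DESeq2 1.42.0, the edgeR exact test, other scalings and filters, blocks, sums per set, single sets, sets or libraries left out, and GC and length trends as an offset (splines of 4 df) or as covariates. The test script was tested on simulated data. Genes, transcripts, GC content and length came from GENCODE M21 on GRCm38, promoters from RefSeq (GRCm38.p6). Depth, 12590476 to 44806556 counts per library, bears most on genes under 5 CPM. All figures were drawn with matplotlib 3.10.9.

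The members and the gene lists were chosen with earlier results of these data known. Every member may be named, except that 1 member and 1 gene of the other lists are counted but not reported here. The lowest, median and highest values are given for up to 4 higher and 4 lower genes per family with an adjusted p under 0.05 and at least 5 CPM, by size of change; others are named where a count or a comparison needs them, and of the other lists up to 4 called genes by size at 1 CPM or more. The lists of reference genes gave 1 of 4 measured lower (Hprt) and none higher. Of the marker lists, 4 of 8 β-cell markers were lower and 1 higher, 1 of 7 neuronal markers was lower and 1 higher (Rbfox3, which is also a member), Gcg was higher, and Sox9 and Pdgfra were lower.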

Additional observations from a re-analysis of the deposited data

Results flagged for a closer look

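The interaction of set and treatment was tested with the edgeR quasi-likelihood test (adjusted p under 0.05). The effect of verapamil differed between the 4 experiment sets for 9.72% of the genes tested and for 24 of the 85 splicing factors (28.2%). Among them were Prpf39, Prpf4b, Prpf38b, Prpf3, Sf3b1, Sf3a3, Sf3a1, Tra2a, Srsf10, Srsf1, Hnrnph1, Ptbp2, Hnrnph3, Hnrnpa3, Hnrnpu, Hnrnpm, Hnrnpa2b1, Hnrnpr, Hnrnph2, Hnrnpa1, Elavl2, Elavl4 and Celf4. In sets 2 and 3, where the verapamil libraries carried the steeper trends with GC content, Prpf39 changed by -2.45 and -2.43, against -0.91 and -0.66 in sets 1 and 4. The part of the trend in these differences was not tested.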

How the results depend on the processing

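Counts are given in the order splicing factors (12 higher and 46 lower in the test reported), all genes (3836 and 3890) and the listed other splicing genes (30 and 74), all by edgeR or DESeq2 with Benjamini-Hochberg adjustment. The DESeq2 test, the edgeR exact test, DESeq2 size factors, no filter, a minimum of 1 CPM and the experiment set as a block moved none of these counts by more than 1.5 times. Upper-quartile factors gave 19 and 43, 4396 and 3489, 37 and 67, sums per set 6 and 26, 3005 and 2124, 12 and 40, the GC and length offset 21 and 34, 4020 and 2952, 30 and 54, and the covariates 1 and 26, 2616 and 1756, 11 and 48 higher and lower genes. Within set 1 the counts were 1 and 33, 1680 and 1721, 7 and 50, within set 2 11 and 45, 3232 and 3802, 22 and 70, within set 3 4 and 42, 2445 and 2878, 8 and 62, within set 4 0 and 0, 39 and 11, 0 and 0, and without sets 2 and 3 1 and 26, 1653 and 1482, 5 and 42. Leaving out a set, verapamil library V11 or control library C9 gave 4 to 13 splicing factors higher, 37 to 49 splicing factors lower, 2852 to 3932 all genes higher, 2518 to 3973 all genes lower, 12 to 29 other splicing genes higher, 63 to 76 other splicing genes lower, the lowest counts falling without set 2 for increases and without set 2 or 3 for decreases. The runs without V11, without C9 and without both sets 2 and 3, and the numbered libraries with no block, were chosen after seeing the data.

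Genes whose log2 fold change turned its sign, with a call in at least 1 of the 2 tests, were as follows. With the offset they were Celf1 0.25, Celf2 0.13, Elavl1 0.33, Hnrnpd 0.73, Hnrnph2 0.022, Hnrnpk 0.28, Hnrnpr 0.53, Hnrnpu 0.23, Nova1 0.86, Prpf40b -0.017, Snrpa -0.15, Snrpb -0.095, Snrpb2 0.35, Snrpert 0.21, Srsf1 0.12, Srsf3 0.48, Srsf6 0.26, Srsf7 0.16, Srsf9 -0.29, Tra2b 0.13, U2af1 -0.25, U2af2 -0.14. With the covariates they were Celf1 0.018, Celf6 -0.040, Elavl4 0.012, Nova1 0.067, Prpf18 0.16, Prpf31 -0.0050, Ptbp3 0.11, Rbfox1 0.53, Sf3a2 -0.020, Sf3b5 -0.19, Sf3b6 -0.011, Snrpb -0.079, Snrpb2 0.041, U2af2 -0.16. Within set 1 they were Prpf38a 0.033, Prpf40b -0.055, Sf3b5 -0.0038, and within set 4 Hnrnpd 0.043. The cause was not tested. The replicate number as a block, over the 20 libraries whose column carries a number of its own, gave 8 splicing factors higher and 45 lower, 3651 and 3917 of all genes and 22 and 77 of the other splicing genes, against 12 and 46 splicing factors in the same libraries with no block. Deviations of same-numbered libraries were correlated at -0.051 to 0.11 over 10 pairs, so the numbers were not taken as a pairing. Depth limits genes near 1 CPM, such as Prpf18, most, and the spread was wider among verapamil libraries (biological coefficient of variation 0.275) than among control libraries (0.102).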
